A study of Homo sapiens with 6 samples.

Results

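AP-1 is a family of dimeric transcription factors, and the 9 genes described here encode its FOS subunits (FOS, FOSB, FOSL1 and FOSL2), its JUN subunits (JUN, JUNB and JUND) and the related proteins ATF3 and BATF3. They were taken by symbol from a table of 60675 genes. All 9 were in the table, and all 9 were among the 16905 genes with enough counts to test. The family was chosen by its FOS, JUN and ATF3-type subunits, but with the measured differences between SW-138 and SW-113 in these same 6 libraries already known, FOS being among the genes then reported as higher with SW-138, so the differences between the compounds are given as a description and no p-value is printed for any of the 9.

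The series asked about the selectivity of compounds that inhibit KDAC6, also called HDAC6, a lysine deacetylase found mainly in the cytoplasm. HT1080 cells, an established human fibrosarcoma line with wild-type genotype per the labels, received SW-138 at 1 µM for 48 h (3 libraries) or SW-113 at 1 µM for 48 h (3 libraries). Total RNA depleted of ribosomal RNA was sequenced. No vehicle group is analysed here, so each compound is set only against the other: "higher" and "lower" mean with SW-138 relative to SW-113, and a higher level could be a rise with SW-138, a fall with SW-113 or both. The labels do not say that the replicates came from separate cultures, so the spread between libraries may be technical.

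Every AP-1 subunit has a basic region that touches DNA and a leucine zipper that joins it to a partner. JUN proteins can pair with themselves or with FOS proteins, whereas FOS proteins need a partner, and ATF3 and BATF3 pair with JUN proteins among others. FOS, FOSB, JUN, JUNB and ATF3 are early response genes, switched on within minutes of a growth or stress signal through MAP kinases, while FOSL1 is known for high, sustained expression in cells with an active RAS-ERK pathway. HT1080 cells carry an activating NRAS mutation.

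The libraries held 32771670 to 40527236 estimated counts with SW-138 and 39249722 to 50871623 with SW-113. SW-138 replicate 2 was set off from the rest, scoring 39.08 on principal component 1 (32.2% of the variance) against -24.05 to 5.88 in the other 5 libraries, so differences are also given without it. The RNA makeup moved with the compound: RN7SL1, an RNA of the signal recognition particle, held 2.56% ± 0.380 of all counts with SW-138 and 4.11% ± 0.349 with SW-113 (SD, n = 3 each), and its part in the results was not tested. Of 10 mesenchymal markers 8 reached a mean of 1 CPM (counts scaled to 1e6 per library), with summed levels of 8510 to 10000 CPM with SW-138 and 7810 to 8950 CPM with SW-113. Of 8 epithelial markers 1 did, with sums of 2.93 to 3.70 CPM with SW-138 and 2.33 to 3.28 CPM with SW-113 and with KRT5 and KRT14 at 0. Of 5 endothelial markers 0 reached that level, and of 6 haematopoietic markers 1 did, CD68, a lysosomal protein gene, with HBB at 0.

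The promoters of FOS and FOSB, the genes with the largest differences, are shown beside those of JUNB and JUND, which differed little and in opposite directions. Each sequence is the 250 bases before the gene's start in RefSeq (GRCh38.p14), on the gene's strand: chr14:75278578-75278827 (+) for FOS, chr19:45467746-45467995 (+) for FOSB, chr19:12791236-12791485 (+) for JUNB and chr19:18281623-18281872 (-) for JUND. Capitals mark matches to TATAA on the gene's strand and, on either strand, to TGACG (read CGTCA on the other strand) and TGACGTCA, the cyclic AMP response element, which contains TGACG.
FOS: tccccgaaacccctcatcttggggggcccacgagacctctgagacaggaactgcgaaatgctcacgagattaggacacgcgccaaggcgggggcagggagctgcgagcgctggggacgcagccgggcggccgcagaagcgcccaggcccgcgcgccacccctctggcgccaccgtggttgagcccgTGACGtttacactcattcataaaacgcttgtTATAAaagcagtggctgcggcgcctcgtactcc
FOSB: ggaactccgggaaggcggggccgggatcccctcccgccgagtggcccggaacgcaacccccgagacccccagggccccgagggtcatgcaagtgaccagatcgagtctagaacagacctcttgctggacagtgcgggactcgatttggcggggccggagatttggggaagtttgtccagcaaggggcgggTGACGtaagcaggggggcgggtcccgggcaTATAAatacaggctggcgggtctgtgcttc
JUNB: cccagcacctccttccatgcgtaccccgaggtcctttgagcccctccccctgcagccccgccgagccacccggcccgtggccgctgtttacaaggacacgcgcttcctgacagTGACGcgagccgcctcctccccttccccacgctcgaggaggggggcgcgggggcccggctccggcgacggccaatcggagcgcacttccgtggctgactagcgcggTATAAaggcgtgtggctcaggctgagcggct
JUND: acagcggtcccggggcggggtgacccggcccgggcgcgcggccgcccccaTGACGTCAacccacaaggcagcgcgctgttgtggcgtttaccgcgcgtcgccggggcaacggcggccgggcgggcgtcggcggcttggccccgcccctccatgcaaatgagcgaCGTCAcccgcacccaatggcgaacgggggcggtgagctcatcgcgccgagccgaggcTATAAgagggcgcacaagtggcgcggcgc

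TATAA lay 33 to 29 bases before the FOS start and 30 to 26 bases before the FOSB start, and TGACG lay 64 to 60 and 60 to 56 bases before them. FOSL2, whose level overlapped between the compounds, had TGACG at nearly the same place, 66 to 62 bases before its RefSeq start, and a CGTCA at 201 to 197 bases. JUNB had TATAA at 31 to 27 bases and TGACG farther out, at 137 to 133 bases. JUND had TATAA at 29 to 25 bases, the full TGACGTCA at 200 to 193 bases and a further CGTCA at 86 to 82 bases. Windows were matched for 7 of the 9 genes, all but FOSL1 and BATF3, and ATF3 had 2 annotated starts. Among these 7, TATAA was found in 5 (13.6% of 35116 RefSeq windows of the same length hold it), TGACG in 6 (21.2%) and TGACGTCA in JUND alone (1.65%). In ATF3 the TATAA lay far out, 230 to 226 bases before an ATF3 start. The members are counted by gene, ATF3 with 2 windows, and the 35116 by window, so these shares are not strictly alike. TGACATCA, the AP-1-like element known from the JUN promoter, was found at 67 to 60 bases before the JUN start and at 123 to 116 bases before an ATF3 start (2.37% of windows). The AP-1 site TGACTCA was in 0 of 7 (4.2% of windows), the CArG box bound by SRF in 0 of 7 (1.16%), and the GC box GGGCGG in 6 of 7 (42.6%), each searched on both strands. All these starts are those of RefSeq, and some lie downstream of the GENCODE start given for the same gene below. The FOSL2 window (28392608 to 28392857) and the JUN window (58784048 to 58784297) lie within the GENCODE spans of those genes. The FOS window runs past the GENCODE start at 75278774, so its TATAA lies within the GENCODE gene. A match describes letters in a window and no match says nothing of sites outside it.

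Per length, FOSL1 was the most abundant of the 9 mRNAs in each of the 6 libraries. Levels between genes were compared as CPM per kilobase of the longest protein-coding transcript in GENCODE release 29, a scale that depends on the transcript chosen. On the CPM scale, which is not set per length, the order of the top pair turns, since FOSL2 has the longer transcript (6708 bases, against 1669 bases in FOSL1). FOSL1 was at 111 ± 6.13 CPM per kilobase with SW-138 and 110 ± 7.04 with SW-113 (SD, n = 3 each). FOSL2, JUN, JUND and JUNB came next, with means over the 6 libraries of 38.1, 33.2, 26.4 and 22.6 CPM per kilobase. The libraries of FOSL2 overlapped those of JUN, those of JUN overlapped those of JUND, and those of JUND overlapped those of JUNB. Neighbours among these 4 genes were thus not separated over all libraries, although FOSL2 exceeded JUN within each library. FOSL2 was apart from JUND and JUNB: its lowest library, 34.2, lay above the highest of JUND, 30.4, and of JUNB, 27.8. ATF3 (7.11), BATF3 (3.12), FOS (1.31) and FOSB (0.209) followed without overlap between neighbours. The lowest FOS library, SW-113 replicate 3 at 0.399, barely exceeded the highest FOSB library, SW-138 replicate 1 at 0.394. Those libraries differ in compound, and within each library FOS was well above FOSB. In SW-113 replicate 3 FOSB was at 0.0586, and in SW-138 replicate 1 FOS was at 2.39.

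**Figure D1:**
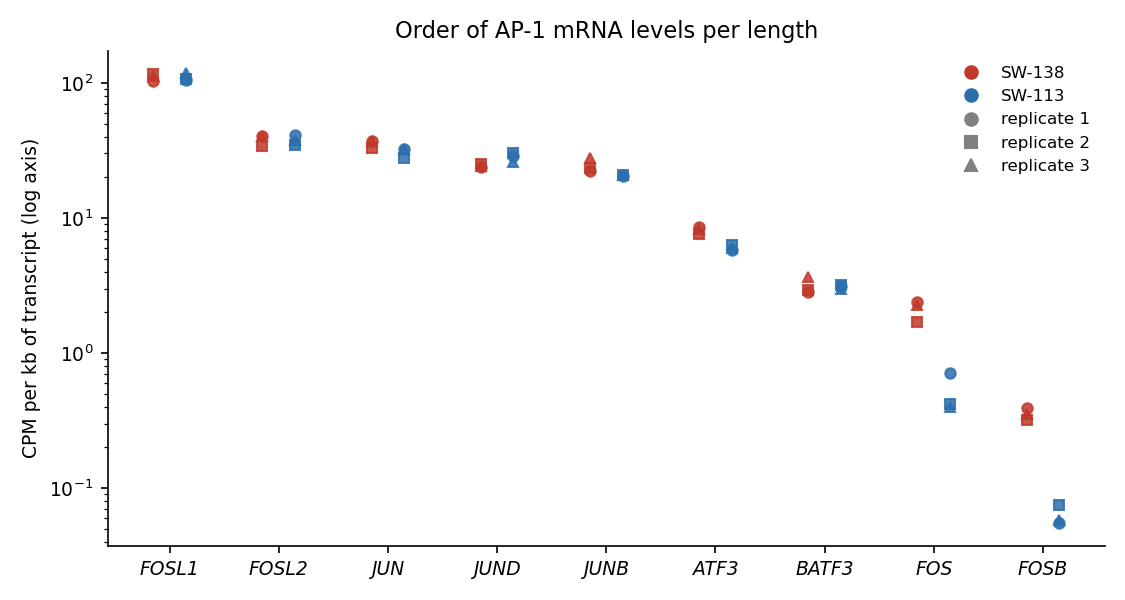
Level of each AP-1 gene in each library, in CPM per kilobase of transcript on a log axis, SW-138 in red and SW-113 in blue, with marker shapes for replicates. FOSL1 lies above all others at 104 to 118 CPM per kilobase, and FOS and FOSB are the lowest and the most separated by compound.

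Within the FOS family, FOSL1 made up 73.0% ± 2.91 of the mRNA per length with SW-138 and 74.1% ± 2.11 with SW-113, and FOSL2 made up 25.4% ± 2.62 with SW-138 and 25.5% ± 1.99 with SW-113. FOS was 1.40% ± 0.258 of the family with SW-138 and 0.346% ± 0.122 with SW-113, and FOSB was 0.235% ± 0.0289 with SW-138 and 0.0426% ± 0.00881 with SW-113 (SD, n = 3 each). The 2 genes with the largest differences between compounds were thus the smallest parts of the family. The family's summed level was 147.3 to 154.7 CPM per kilobase with SW-138 and 141.6 to 156.1 with SW-113, ranges that overlap. Within the JUN family, JUN took 42.1% ± 2.24 with SW-138 and 38.6% ± 3.17 with SW-113, JUNB 28.98% ± 2.15 with SW-138 and 25.9% ± 0.750 with SW-113, and JUND 28.9% ± 1.94 with SW-138 and 35.5% ± 2.90 with SW-113. Summed over all 9 genes the level was 247 ± 7.44 CPM per kilobase with SW-138 and 237 ± 7.19 with SW-113, and the libraries overlapped.

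At the same dose and time, FOS, FOSB and ATF3 were higher with SW-138 than with SW-113, by 4.19-fold, 5.56-fold and 1.36-fold, and FOSL1, FOSL2 and BATF3 had nearly equal means. JUN and JUNB lay above and JUND below in every library, by small amounts that did not pass the threshold. In edgeR's quasi-likelihood test with Benjamini-Hochberg adjustment over all 16905 genes at 0.05, 3 of the 9 genes passed as higher and 0 as lower. Of all tested genes 6.82% passed, 2.76% as higher and 4.06% as lower, and since the set was chosen with this contrast known, nothing is read from the comparison of these shares. At an unadjusted p under 0.05, 5 of the 9 were higher and 1 was lower, and DESeq2 and limma-voom each called 0 lower. The share of all tested genes at that unadjusted threshold was not taken. Nothing is therefore read from counts at it, here or in the related lists. The libraries of the compounds did not overlap in 6 of the 9 genes, 5 higher and 1 lower, where 27.9% of all tested genes showed no overlap, 12.4% as higher and 15.4% as lower. The median log2 fold change of the 9 was 0.21, where that of all tested genes was 0.007.

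**Figure D2:**
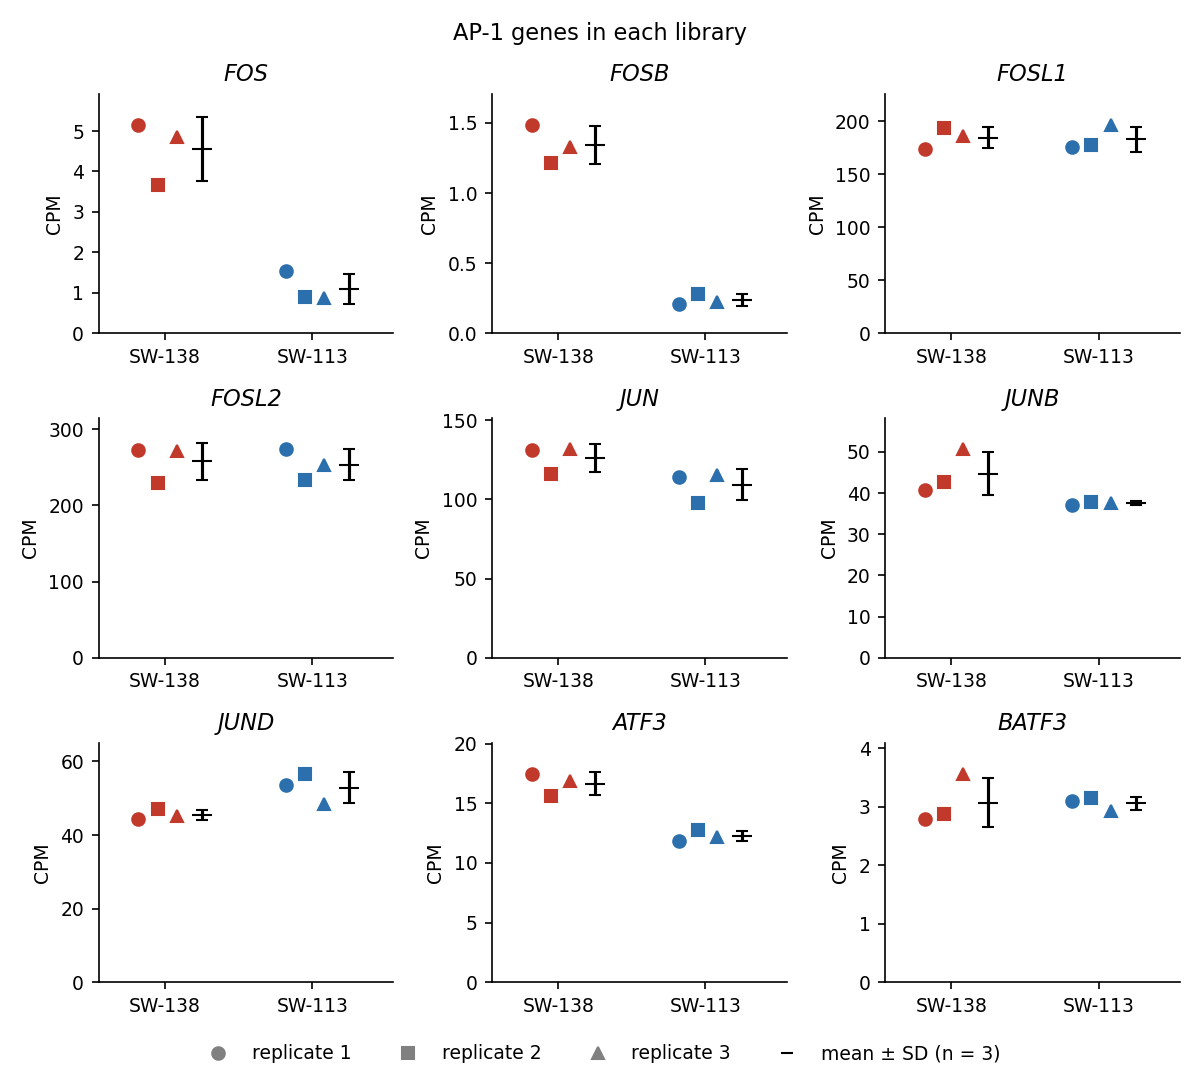
CPM of each AP-1 gene in each library, axes from 0, with SW-138 in red and SW-113 in blue, marker shapes for replicates and the mean ± SD in black. FOS and FOSB are separated widely by compound, ATF3, JUN, JUNB and JUND narrowly, and the groups overlap in FOSL1, FOSL2 and BATF3.

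FOS (ENSG00000170345, GRCh38 chromosome 14, 75278774 to 75282230, plus strand, 4 exons) encodes the founding member of its family, whose mRNA and protein are both short-lived. It had 215, 124 and 179 counts with SW-138 and 59, 45 and 35 with SW-113 in replicates 1, 2 and 3. Scaled for library size these were 5.16, 3.67 and 4.86 CPM with SW-138 and 1.53, 0.907 and 0.860 CPM with SW-113. The groups were far apart and did not overlap, with replicate 2 the lowest of the SW-138 libraries and replicate 1 the highest of the SW-113 libraries. The difference on the log2 scale was 2.07 ± 0.25 (SE; 95% interval 1.52 to 2.61), or 2.87-fold to 6.11-fold. FOS ranked 9 from the top of 16905 genes by log2 fold change, at a level in the 30.1 percentile of tested genes. Its coefficient of variation was 17.3% with SW-138 and 34.1% with SW-113, where counting error alone gives 7.81% with SW-138 and 15.03% with SW-113. In bulk RNA, a larger share of cells with FOS mRNA and more FOS mRNA per cell cannot be told apart.

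FOSB (ENSG00000125740, chromosome 19, 45467995 to 45475179, plus strand, 4 exons), whose splice form ΔFOSB is known as a stable protein in brain, was the scarcest of the 9. It had 62, 41 and 49 counts with SW-138 and 8, 14 and 9 with SW-113. These were 1.49, 1.21 and 1.33 CPM with SW-138 and 0.208, 0.282 and 0.221 CPM with SW-113, with no overlap. The difference on the log2 scale was 2.48 ± 0.30 (SE; 95% interval 1.81 to 3.14), and FOSB ranked 2 from the top by log2 fold change. FOSB entered the test through the SW-138 libraries: the filter asks for 0.251 CPM (10 counts at the median depth) in 3 libraries, which 3 SW-138 libraries and 1 SW-113 library reached, so a gene at this level had to be higher somewhere to be tested. The spread between SW-113 libraries, 16.7%, was below the 32.0% that counting error gives. That between SW-138 libraries, 10.2%, was below 14.25%, so depth limits the values of both groups. The gene lies within ERCC1, a DNA repair gene on the other strand, and the strand setting of the counting is not given in the sources used here. ERCC1 was at 74.2 CPM under SW-138 and 76.5 CPM under SW-113 (log2 fold change -0.05 ± 0.08, SE; edgeR, Benjamini-Hochberg adjusted p = 0.767).

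FOSL1 and FOSL2, the abundant FOS genes, did not share the difference. FOSL1 (ENSG00000175592, chromosome 11, 65892049 to 65900573, minus strand), which encodes FRA1, was at 173, 194 and 186 CPM with SW-138 and 175, 177 and 197 CPM with SW-113. FOSL2 (ENSG00000075426, chromosome 2, 28392448 to 28417312, plus strand), which encodes FRA2, was at 272, 230 and 272 CPM with SW-138 and 274, 233 and 254 CPM with SW-113. In both genes the groups overlapped, and replicate 2 was the lowest FOSL2 library with either compound. The log2 fold changes were 0.01 ± 0.06 (SE) for FOSL1 and 0.02 ± 0.08 for FOSL2. Their 95% intervals, -0.12 to 0.14 and -0.15 to 0.20, leave out a difference of the size seen in FOS, although the sign of both values changed when single libraries were left out. FOSL2 overlaps an antisense gene, FLJ31356, which was at 0.298 CPM under SW-138 and 0.398 CPM under SW-113.

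The JUN genes, each a single exon, differed little. JUN (ENSG00000177606, chromosome 1, 58780788 to 58784327, minus strand), the main dimer partner of FOS, was at 131, 116 and 131.5 CPM with SW-138 and 114, 97.8 and 115 CPM with SW-113. JUNB (ENSG00000171223, chromosome 19, 12791496 to 12793315, plus strand), known as a weaker activator than JUN on many promoters, was at 40.7, 42.8 and 50.6 CPM with SW-138 and 37.0, 37.9 and 37.7 CPM with SW-113. JUND (ENSG00000130522, chromosome 19, 18279760 to 18281622, minus strand), which is expressed steadily in most cells and is bound by menin, was at 44.3, 47.0 and 45.1 CPM with SW-138 and 53.6, 56.6 and 48.3 CPM with SW-113. No gene of the 3 had overlapping groups, but the gaps were narrow: 115.7 CPM in the lowest SW-138 library against 115.3 CPM in the highest SW-113 library for JUN, and 47.0 against 48.3 CPM in the nearest libraries for JUND. The log2 fold changes were 0.21 ± 0.08 (SE) for JUN, 0.25 ± 0.08 for JUNB and -0.22 ± 0.07 for JUND, with 95% intervals of 0.04 to 0.38, 0.08 to 0.42 and -0.36 to -0.07. None of the 3 passed in edgeR's test on all 6 libraries with the filter, scaling and threshold of the main fit and no block. All 3 passed without SW-138 replicate 2, which gave 5 of 9 genes higher and 1 lower. That fit called more genes in general, 803 higher and 813 lower of 17208 tested, against 466 and 687 of 16905 in the main fit. With all 6 libraries some or all of the 3 passed under other settings, given in the closing section. JUNB lies within HOOK2 on the other strand, which was at 6.54 CPM under SW-138 and 6.62 CPM under SW-113.

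ATF3 (ENSG00000162772, chromosome 1, 212565334 to 212620777, plus strand, 4 exons), a stress-induced factor that also lies downstream of ATF4, was at 17.5, 15.6 and 16.9 CPM with SW-138 and 11.9, 12.7 and 12.2 CPM with SW-113. The groups did not overlap, and the lowest SW-138 library was again replicate 2. This is a difference of 0.44 ± 0.08 on the log2 scale (SE; 95% interval 0.27 to 0.61). BATF3 (ENSG00000123685, chromosome 1, 212686418 to 212699985, minus strand), known from mice for its part in the making of cross-presenting dendritic cells, lies 65.6 kb beyond the end of ATF3 on the same chromosome. It was at 2.78, 2.87 and 3.56 CPM with SW-138 and 3.09, 3.15 and 2.93 CPM with SW-113, with overlapping groups. The difference was 0.01 ± 0.15 on the log2 scale (SE; 95% interval -0.32 to 0.33).

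The fits that left out a library reuse the libraries in which the set was chosen, so they describe how much 1 library weighs and add no support. Over the 6 fits the log2 fold change ranged from 1.93 to 2.36 in FOS, from 2.39 to 2.63 in FOSB and from 0.40 to 0.48 in ATF3. Of the 54 counts of the 9 genes in the 6 libraries, 53 were whole numbers to within 1e-06. Whole counts do not show how reads over overlapping genes were assigned, since a read given wholly to 1 gene also leaves a whole number.

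**Figure D3:**
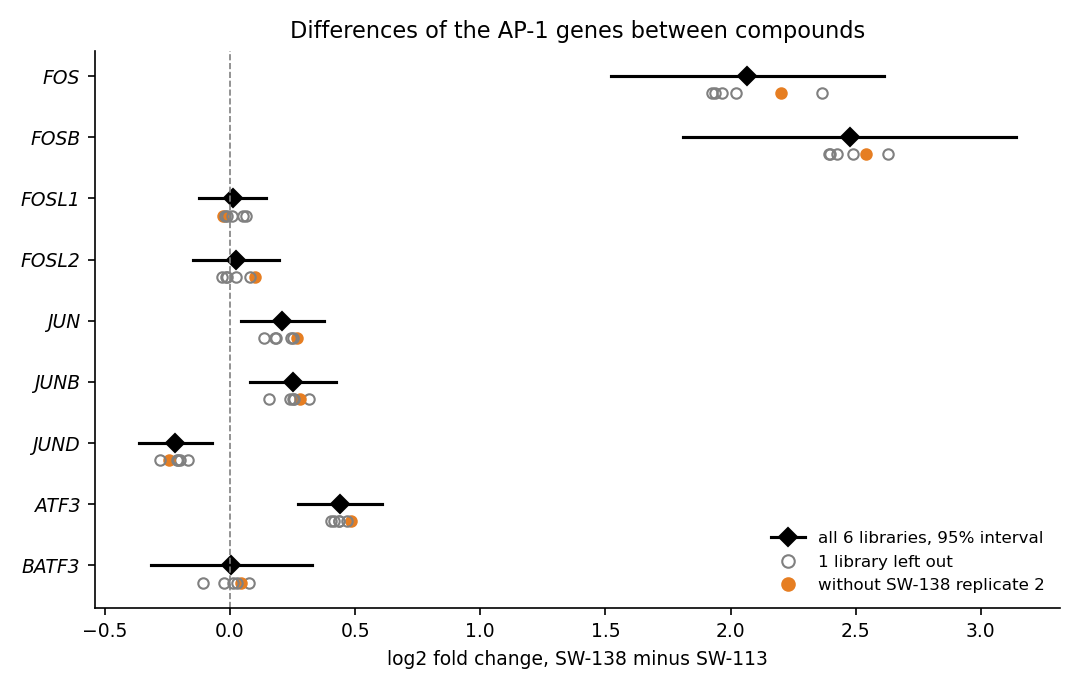
Log2 fold change of each AP-1 gene, SW-138 minus SW-113, with all 6 libraries (black diamond, 95% interval) and with 1 library left out (circles, orange without SW-138 replicate 2). FOS and FOSB lie near 2 and above, ATF3 near 0.44, JUN and JUNB above 0 and JUND below it, and FOSL1, FOSL2 and BATF3 at 0.

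Genes with a pattern most like a member's over the 6 libraries were taken by Pearson correlation of log2 CPM among 13594 other genes with a mean of at least 1 CPM. For FOS these were TLN2, KCNS3 and SMOC1, each at r = 0.997, with log2 fold changes of 0.20, 0.05 and 0.76, so a like pattern did not mean a difference of like size. For JUN they were DDX11 (r = 0.997), CD59 (0.996) and INHBA (0.995), and for FOSL1 they were TSN (0.991), TOX4 (0.989) and PLA2G4A (0.984). With 6 points that share library and depth, 182 genes exceeded r = 0.95 with FOS, 145 with JUN and 7 with FOSL1.

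Of 21 genes for other basic leucine zipper proteins that can pair with AP-1 subunits 17 were tested, and 3 passed as higher and 0 as lower (edgeR, Benjamini-Hochberg). That is 17.6% of those tested, where 6.82% of all tested genes passed. At an unadjusted p under 0.05, 7 were higher and 1 was lower, and 0 were lower with DESeq2 or limma-voom. Their median log2 fold change was 0.02. DDIT3, a stress-induced factor that restrains C/EBP proteins, was at 41.9 ± 2.11 CPM under SW-138 and 32.8 ± 4.36 CPM under SW-113 (SD, n = 3 each; edgeR, Benjamini-Hochberg adjusted p = 0.041). The small MAF genes MAFF and MAFK were higher by 0.24 ± 0.06 and 0.30 ± 0.08 on the log2 scale (SE). Without any single library other than SW-138 replicate 2 the count of 3 fell to 0 or 1, and without that library it was 4. ATF2, the usual partner of JUN on its own promoter, was at 68.0 CPM under SW-138 and 71.4 CPM under SW-113, and ATF4, a main activator of ATF3 under stress, at 522 CPM under SW-138 and 555 CPM under SW-113, neither past the threshold (edgeR, Benjamini-Hochberg adjusted p = 0.445 and 0.341). JDP2, a repressive partner of JUN that lies 149 kb from FOS, was at 29.3 CPM under SW-138 and 30.0 CPM under SW-113 (edgeR, Benjamini-Hochberg adjusted p = 0.772). BATF, 244 kb from FOS, had 0 counts in each of the 6 libraries. Among 20 tested genes of other basic leucine zipper factors 2 were higher, 10% of those tested, where 6.82% of all tested genes passed. They were NFIL3 (0.41 ± 0.05), a transcriptional repressor, and the endoplasmic reticulum stress sensor ATF6 (0.21 ± 0.05). ATF6 did not pass with length and GC trends removed (0.15; edgeR, Benjamini-Hochberg adjusted p = 0.178) or when any library other than SW-138 replicate 2 was left out. In that list 0 were lower (3 at an unadjusted p under 0.05, 0 with DESeq2 or limma-voom), 1 was higher without any single library other than SW-138 replicate 2, and 5 were without that one.

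Other immediate early genes held several that were higher, up to 1.17 on the log2 scale. Of 28 listed 25 were tested, and 7 passed as higher and 1 as lower (edgeR, Benjamini-Hochberg). That is 32% of those tested, where 6.82% of all tested genes passed, and the median log2 fold change was 0.16. EGR1, a zinc finger factor, was at 14.4, 11.9 and 15.3 CPM with SW-138 and 7.04, 7.72 and 6.32 CPM with SW-113, and was higher by 0.98 ± 0.12 on the log2 scale (SE; edgeR, Benjamini-Hochberg adjusted p = 0.00192). As in FOS and FOSB, replicate 2 was the lowest SW-138 library. The orphan nuclear receptor genes NR4A3 and NR4A1 were higher by 1.17 ± 0.15 and 1.12 ± 0.15, and PPP1R15A, which restores translation after stress, by 0.53 ± 0.09. The member that was lower, BTG2, an antiproliferative gene that is also a p53 target, was at -0.51 ± 0.09. BTG2 is named here after its values were seen. The count of 7 was 4 or 5 without any single library other than SW-138 replicate 2 and 11 without that library, and PPP1R15A did not pass without SW-113 replicate 3.

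Most kinases and factors upstream of FOS did not pass. Of 38 MAP kinase and SRF input genes 3 passed as higher, 3 as lower and 32 in neither direction (15.8% in all, where 6.82% of all tested genes passed; edgeR, Benjamini-Hochberg), and the median log2 fold change was -0.03. The MAP kinase gene MAPK3, which encodes ERK1, was at 18.1 CPM under SW-138 and 21.2 CPM under SW-113 (edgeR, Benjamini-Hochberg adjusted p = 0.0943). SRF, which binds the serum response element of FOS, was at 72.2 CPM under SW-138 and 69.3 CPM under SW-113, and its cofactor gene ELK1 at 31.3 CPM under SW-138 and 34.2 CPM under SW-113 (edgeR, Benjamini-Hochberg adjusted p = 0.548 and 0.351). MEF2C, a factor held back by class IIa deacetylases, was at 6.47 ± 0.493 CPM under SW-138 and 3.35 ± 0.700 CPM under SW-113 (SD, n = 3 each; edgeR, Benjamini-Hochberg adjusted p = 0.00731). MEF2D was higher by 0.25 ± 0.06 (SE) and MAP2K3, a kinase that activates p38, by 0.35 ± 0.05, while MAP2K2, which encodes MEK2, was at -0.28 ± 0.06. The 3 lower calls were lost with scaling by total count alone and without any single library other than SW-138 replicates 2 and 3, where 4 and 2 were lower. MEF2D did not pass when any library other than SW-138 replicate 2 was left out, and MAP2K2 also missed the threshold with length and GC trends removed.

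Among 25 genes that restrain AP-1 or turn over its mRNA and proteins, 4 passed as higher and 1 as lower (edgeR, Benjamini-Hochberg). That is 20% of those tested, where 6.82% of all tested genes passed, and the median log2 fold change was -0.02. DUSP5 and DUSP8, phosphatases of MAP kinases, were higher by 0.33 ± 0.05 and 0.61 ± 0.13 on the log2 scale (SE), while DUSP4, another of them, was at 216 ± 2.89 CPM under SW-138 and 279 ± 6.14 CPM under SW-113 (SD, n = 3 each; edgeR, Benjamini-Hochberg adjusted p = 0.00288). ZFP36L1, which binds AU-rich mRNAs such as those of early genes, was higher by 0.19 ± 0.04. The count of 4 was 1 or 2 without any single library other than SW-138 replicate 2 and 5 without it. DUSP4 and DUSP5 passed in all 6 of these fits. ZFP36L1 passed in that without SW-138 replicate 2 alone and did not pass with length and GC trends removed, and DUSP8 passed in those without SW-138 replicate 2 or SW-113 replicate 1.

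Among genes listed as known AP-1 targets some passed in each direction and most did not pass. Of 38 listed 34 were tested, and 8 passed as higher, 3 as lower and 23 in neither direction (32.4% in all, where 6.82% of all tested genes passed; edgeR, Benjamini-Hochberg), and the median log2 fold change was 0.12. MMP1, the collagenase gene whose promoter AP-1 site is a textbook example, was at 64.1, 58.5 and 69.4 CPM with SW-138 and 45.6, 45.2 and 47.1 CPM with SW-113, and was higher by 0.48 ± 0.07 on the log2 scale (SE; edgeR, Benjamini-Hochberg adjusted p = 0.00372). The cytokine gene IL24, itself one of the genes with the largest difference in these libraries, was at 67.3, 66.6 and 65.0 CPM with SW-138 and 22.1, 28.4 and 19.3 CPM with SW-113. SERPINB2, a serpin that inhibits urokinase, was higher by 0.85 ± 0.11 and CCND1, which encodes cyclin D1, by 0.40 ± 0.05. NQO1, a quinone reductase gene better known as an NRF2 target, was at -0.44 ± 0.05. PLAUR, the urokinase receptor gene, was at 89.5 ± 12.6 CPM under SW-138 and 68.8 ± 7.12 CPM under SW-113, with overlapping groups, and did not pass (SD, n = 3 each; edgeR, Benjamini-Hochberg adjusted p = 0.0537). The count of 8 was 5 or 6 without any single library other than SW-138 replicate 2 and 12 without it. The count of 3 lower was 1 without SW-138 replicate 3, SW-113 replicate 1 or SW-113 replicate 3 and with total count alone, 2 without SW-138 replicate 1 or SW-113 replicate 2, 4 without SW-138 replicate 2 and 5 with DESeq2. MMP1, IL24, SERPINB2, CCND1 and NQO1 passed in all 6 fits. These lists were drawn up with results of these libraries known, and their counts are not independent evidence of a direction.

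**Figure D4:**
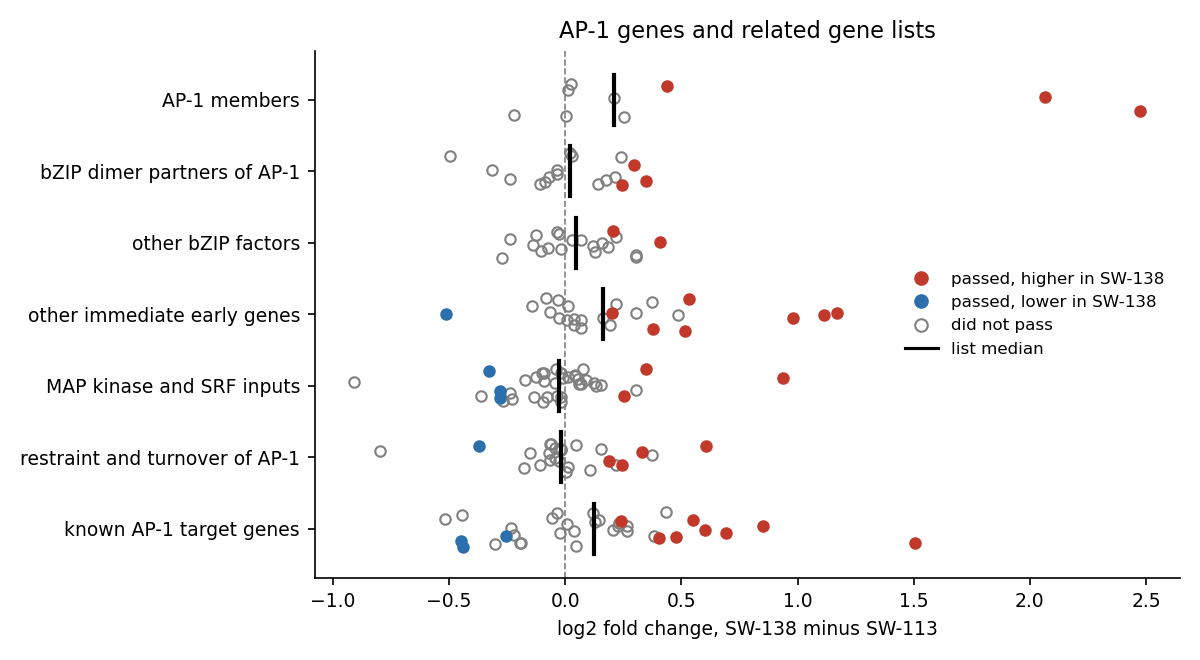
Log2 fold change, SW-138 minus SW-113, of the AP-1 genes and of the tested genes in 6 related lists. Filled points passed the threshold (red higher with SW-138, blue lower), open points did not, and black bars are list medians, from -0.03 to 0.21.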

How the data were processed

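Gene levels were measured by RNA sequencing in 6 HT1080 libraries, 3 per compound, grouped by the labels. The authors deposited 1 table of expected counts (estimated reads per gene, 10.6% to 11.6% of values not whole). Trimmomatic 0.39, Bowtie2 2.5.4, RSEM 1.3.3, DESeq2 1.42.0 and the build GRCh38 are named in the submitters' processing notes, with no role or order. The annotation and strand setting are not given in the sources used here. Expected counts were rounded, filtered with filterByExpr (16905 genes), scaled by TMM and compared, SW-138 minus SW-113, with edgeR 4.0.16 (quasi-likelihood test, no block, Benjamini-Hochberg over all tested genes at 0.05). Standard errors and the widths of 95% intervals, centred on edgeR's log2 fold changes, are those of limma 3.58.1 (voom). CPM used TMM-scaled totals, and correlations used log2 CPM with a prior count of 2. Coordinates and transcript lengths came from GENCODE release 29 (57055 of 60675 genes matched) and promoters from RefSeq. The fits were tested on simulated data.

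The members, the related lists and the rule for naming genes were chosen with earlier results of these data known. All 9 members were always named, with up to 4 passing genes of smallest p in each list and a fixed set of other genes, BTG2 being an addition and 1 result not being reported here. Alternatives were other scalings, filters and tests (DESeq2 1.42.0, limma-voom), a replicate block, fits without each library in turn, fits corrected for transcript length and GC content, and a threshold of 0.1. R was version 4.3.3 and matplotlib 3.10.9.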

Additional observations from a re-analysis of the deposited data

How the results depend on the processing

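FOS and FOSB passed under each alternative that tested them, and ATF3 under all, which adds no support since the set was chosen on these libraries. Outside the fits that left out a library, the log2 fold change ranged from 2.06 to 2.13 in FOS, from 2.44 to 2.54 in FOSB and from 0.44 to 0.50 in ATF3. A mean of at least 5 CPM removed FOS, FOSB and BATF3 from the test, which left 1 AP-1 gene past the threshold (1 higher). With genes kept at 1 count in 1 library 6 of the 9 passed (5 higher, 1 lower), as many with the replicate block (5 higher, 1 lower), and 5 with an adjusted threshold of 0.1 (1 lower), JUNB and JUND being in each and JUN in the first 2 alone. DESeq2, total count alone and the removal of length and GC trends each added JUNB. Leaving out single libraries gave 3 to 6 AP-1 genes (3 to 5 higher, 0 to 1 lower). Over all genes the calls were 1153 of 16905 tested (466 higher, 687 lower, 40.4% higher). They were 2060 of 31501 (991, 1069) at 1 count in 1 library and 2363 of 16905 (1093, 1270) with the replicate block. Of the same 16905 genes, 2012 (832, 1180) passed at a threshold of 0.1. With total count alone 923 were higher and 377 lower, or 71% higher, also of 16905. Without single libraries the calls were 303 to 1616 (149 to 803 higher, 154 to 813 lower). They were fewest without SW-113 replicate 3 (17373 genes tested) and most without SW-138 replicate 2 (17208 tested). In the related lists 35 genes passed, 60 with the replicate block and 16 to 50 without single libraries. The same-numbered libraries shared only a number: their deviations correlated at 0.049 to 0.206, and 2 of 6 libraries correlated best with their own number. Values near 0 changed sign: FOSL1 ran from -0.028 to 0.064, FOSL2 from -0.033 to 0.099 and BATF3 from -0.109 to 0.075 without single libraries. BATF3 was at -0.005 with limma-voom, FOSL2 at -0.027 without length and GC trends, and JDP2 at 0.03 with total count alone. Some of these fits had smaller samples or other genes in the test, and the cause of the changes was not tested.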

Other observations

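Across the 36 pairs of AP-1 genes, correlations of log2 CPM over the 6 libraries ran from -0.907 (JUN with JUND) to 0.988 (FOSB with ATF3), and 3 pairs exceeded 0.9, FOS with FOSB, FOS with ATF3 and FOSB with ATF3. These points share library and depth and include the difference between compounds. With each compound's mean taken off, FOS with FOSB was at -0.137, FOS with ATF3 at 0.101 and FOSB with ATF3 at 0.895. After the same step JUNB with BATF3 was at 0.95, FOSL2 with JUN at 0.906, FOS with FOSL2 at 0.828 and JUN with JUND at -0.789. The residual values rest on 3 libraries per compound and are given as a description, with no test. Depth limits them: FOSB varied less than counting error gives with either compound (10.2% against 14.25% with SW-138, 16.7% against 32.0% with SW-113). With SW-113 so did ATF3 (3.50% against 4.39%) and BATF3 (3.77% against 8.80%), though with SW-138 both varied more than counting error gives.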
